A study of Mus musculus with 9 samples.

Results

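Nup62, Il4i1 and Tmem189 are the 3 rows of the count table that lie opposite Atf5 and Cebpb, a pair of stress-responsive transcription factors. They are 3 of 53379 rows, chosen by their measured difference between DON and control when each row is read as the gene on the other strand. That difference is therefore given for them as a description, with no test. All 3 rows passed the filter on low counts, as did 4731 rows in all.

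RNA was sequenced from MOVAS, an immortalised smooth muscle line of the mouse aorta (C57BL/6), after 24 h in medium with serum. The 3 groups of 3 libraries were untreated control, 50 mM DON, and 50 mM DON with 2 mM glutamate, doses as labelled. DON is a glutamine analogue that blocks enzymes which use glutamine, and the design asks what that block changed and what differed when glutamate was supplied with it. The cells are 1 line. Whether the libraries of a group are separate cultures is not given in the labels, so the tests weigh differences against a spread that could be technical alone. Libraries held 1132822 to 1342286 counts, the fewest in DON plus glutamate replicate 3. Levels are given as CPM, the count of a row scaled to a common library total. Of 10 smooth muscle markers, 2 could be read on the opposite strand, Tagln and Smtn, whose summed level was 959 to 1115 CPM in control, 770.1 to 868 in DON and 732 to 1019 in DON plus glutamate. Of 5 fibroblast markers 1 could be read, Pdgfra, at 14.1 to 17.0, 2.32 to 8.23 and 2.98 to 10.6 CPM. Both were lower with DON, in every library for DON alone, and their part in the results that follow was not tested. None of 5 endothelial, 5 leukocyte or 4 epithelial markers could be read; under their own names these rows held at most 3, 11 and 1 counts.

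When an amino acid runs short, kinases phosphorylate the initiation factor eIF2, protein synthesis slows, and the mRNA of ATF4 is translated more. ATF4 is a basic leucine zipper factor that switches on genes of amino acid supply and further factors of its own class, among them Atf5, Ddit3 (CHOP) and Cebpb. ATF5 is itself controlled in translation by upstream reading frames and has been linked to the stress response of mitochondria. C/EBP-beta pairs with other zipper proteins, and its single mRNA gives several protein forms from different start codons, which counts of reads cannot separate. In a bulk culture, fewer cells with a transcript and less of it per cell cannot be told apart.

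The rows do not measure the genes they are named for if the strand was reversed in counting. The Cebpb row held 2 to 6 counts per library, and the Tmem189 row, whose only opposite gene is Cebpb, held 442 to 780. Cebpb lies on the plus strand at chr2:167688915-167690418 (mm10) and has 1 exon. Tmem189, which encodes a lipid desaturase of plasmalogen synthesis, begins inside it and runs the other way on the minus strand, from chr2:167642608-167689822. The shared bases, chr2:167689511-167689822, number 312. They are all coding, 35.1% of the 888 coding bases of Cebpb, and they are the part of Cebpb that the row can read. Their first 300 bases follow, on the plus strand from chr2:167689511-167689810, because they are the measured piece of the gene. Capitals mark the 27 bases that encode the signature of the DNA-binding basic region, found by reading the stretch in frame.
Cebpb stretch opposite Tmem189: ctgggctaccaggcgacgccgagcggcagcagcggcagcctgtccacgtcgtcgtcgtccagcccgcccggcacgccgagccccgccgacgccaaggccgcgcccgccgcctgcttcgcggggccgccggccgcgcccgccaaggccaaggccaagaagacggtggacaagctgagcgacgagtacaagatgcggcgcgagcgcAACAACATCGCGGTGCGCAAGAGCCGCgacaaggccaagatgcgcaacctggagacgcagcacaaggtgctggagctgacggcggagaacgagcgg

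Atf5 lies on the minus strand at chr7:44812256-44816658 and Nup62, a protein of the nuclear pore channel, runs away from it on the plus strand from chr7:44816088-44830812. Their first exons overlap by 82 bp, at chr7:44816402-44816483, in the 5′ UTR of both. That is 4.11% of the 1993 exonic bases of Atf5. The window belongs to the Atf5 transcripts that start upstream and is absent from the transcript that starts further down, so the Nup62 row can read only the former. Il4i1, a secreted amino acid oxidase, shares that first exon on the same strand and covers the same 82 bases. Its further exons lie opposite 3423 bases of Tbc1d17, a Rab GTPase-activating protein, at chr7:44834623-44849079 on the minus strand. The 250 bases before each Atf5 start and before Cebpb are shown because the data bear on transcripts from the first and the last of them (RefSeq, GRCm38.p6, the build also called mm10).
Atf5 upstream start, minus strand, chr7:44816659-44816908: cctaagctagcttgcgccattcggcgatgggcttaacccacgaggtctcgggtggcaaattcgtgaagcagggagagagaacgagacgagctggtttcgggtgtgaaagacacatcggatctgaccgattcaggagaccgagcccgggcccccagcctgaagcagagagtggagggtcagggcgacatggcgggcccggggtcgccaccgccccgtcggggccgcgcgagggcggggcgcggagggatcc
Atf5 downstream start, minus strand, chr7:44815659-44815908: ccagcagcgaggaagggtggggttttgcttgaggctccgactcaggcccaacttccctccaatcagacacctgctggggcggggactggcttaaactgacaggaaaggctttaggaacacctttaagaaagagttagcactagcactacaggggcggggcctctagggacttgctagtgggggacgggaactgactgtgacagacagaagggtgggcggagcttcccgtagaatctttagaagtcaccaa
Cebpb start, plus strand, chr2:167688665-167688914: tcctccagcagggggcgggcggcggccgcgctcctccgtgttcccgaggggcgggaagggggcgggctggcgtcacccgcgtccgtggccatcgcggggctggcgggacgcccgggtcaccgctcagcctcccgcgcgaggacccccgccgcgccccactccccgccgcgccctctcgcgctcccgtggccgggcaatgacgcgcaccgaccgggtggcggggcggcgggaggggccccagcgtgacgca
Both strands were searched, from 250 bases before to 50 after each start, for TGATGNAA, the core of the C/EBP-ATF composite element that ATF4 binds, for TTGCNNAA, a C/EBP site, and for TGACGTCA, the cyclic AMP response element. Of 32851 promoter windows, 3.97%, 10.8% and 1.79% held them. The windows of Atf5 and Cebpb held no exact match to these motifs, and neither did that of Nup62. Shorter or inexact forms of these sites were not searched.

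**Figure D1:**
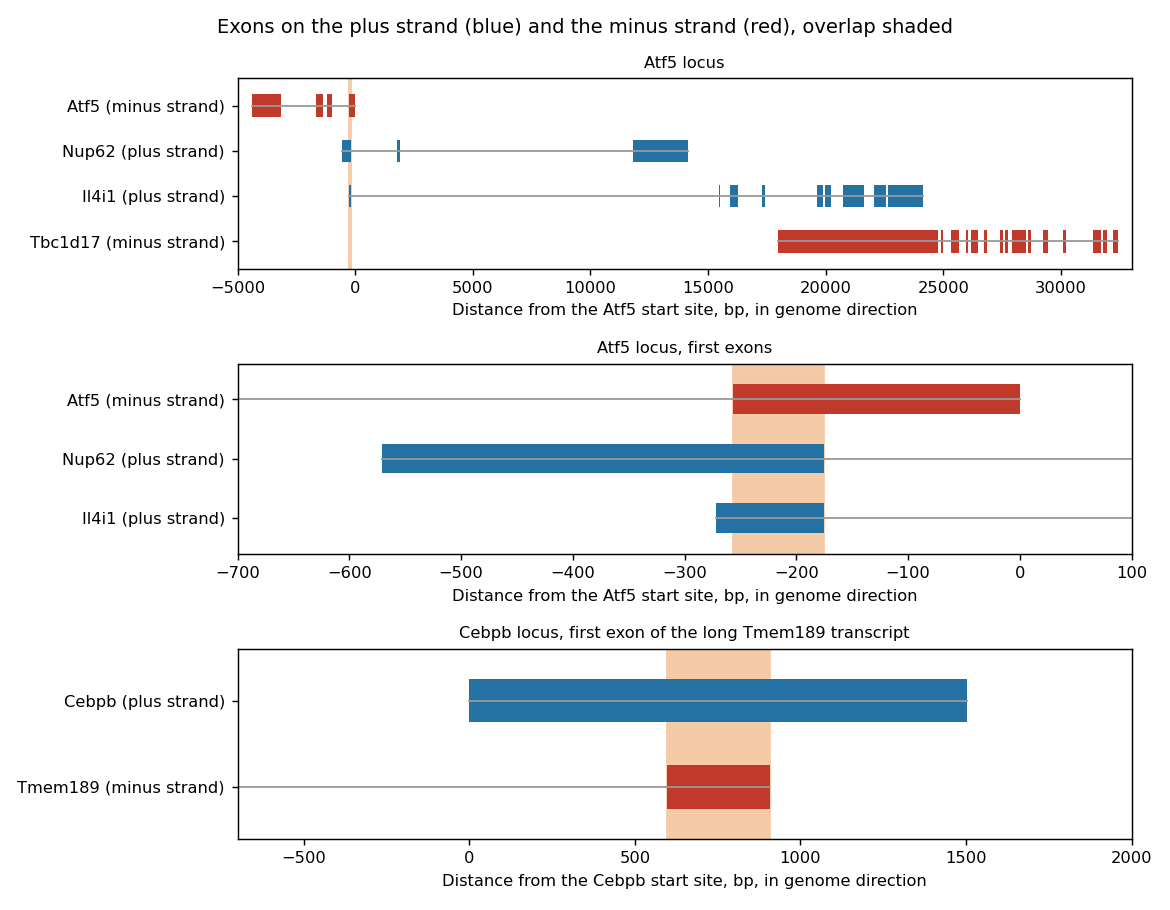
Exons of the genes at the Atf5 locus (top, and enlarged in the middle) and at the Cebpb start (bottom), against distance in bp from the Atf5 or Cebpb start site in genome direction. Blue is the plus strand and red the minus strand, lines are introns, and shading marks the overlap of 82 bp with Atf5 and of 312 bp with Cebpb.

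The Nup62 row, read as Atf5, was about 3 times higher with DON. It stood at 457, 498 and 425 CPM in control replicates 1, 2 and 3, and at 1690.1, 1329.9 and 1485 CPM in DON. With glutamate added to DON it stood at 1680.3, 1831 and 1230.4 CPM. All 6 libraries with DON lay above all 3 controls, and the glutamate libraries ranged on both sides of the DON libraries. The group means were 459.9 ± 36.5, 1502 ± 181 and 1581 ± 312 CPM (SD, n = 3 each). DON against control gave a log2 difference of 1.71 ± 0.11 (SE), or 3.27-fold, the 14th highest of 4731 rows. The test used throughout is edgeR's quasi-likelihood test, with a row called where the Benjamini-Hochberg adjusted p over all rows is under 0.05. In DON against control it called 6.32% of rows, 2.64% as higher and 3.68% as lower, and with library totals more rows were called higher than lower (180 against 126, where the main normalisation gave 125 against 174). All DON libraries lay above all controls in 11.5% of rows.

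The Il4i1 row repeated the Nup62 row. Its control libraries held 504, 543 and 462 CPM, its DON libraries 1731, 1374 and 1526 CPM, and its glutamate libraries 1741, 1891 and 1270.1 CPM, with means of 503 ± 40.4, 1543 ± 179 and 1634 ± 324 CPM (SD, n = 3). DON against control was at log2 1.62 ± 0.11 (SE), or 3.07-fold. The likeness is no second measurement of Atf5, since both rows hold the same 82 bases. In raw counts the Il4i1 row exceeded the Nup62 row by 61, 57 and 47 in control, by 54, 57 and 53 in DON, and by 80, 80 and 45 in DON plus glutamate, while the Nup62 row itself went from 544 to 2460. The excess was 2.33% to 9.33% of the Il4i1 count. It averaged 55.0 ± 7.2 counts in control and 54.7 ± 2.1 in DON (SD, n = 3), so the difference between these groups was nearly the same in raw counts in both rows. How reads in an exon of 2 rows were counted is not given in the sources used here. Across the table, 592 rows have every exonic base inside another row of the same strand, and 159 of these held a count. By the reversed reading, the excess could be the part of the Il4i1 row opposite Tbc1d17. For that, both rows would have to hold the same Atf5 reads, and neither any read in exons opposite no gene. The excess was 45 to 80 counts a library, and neither condition was tested.

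**Figure D2:**
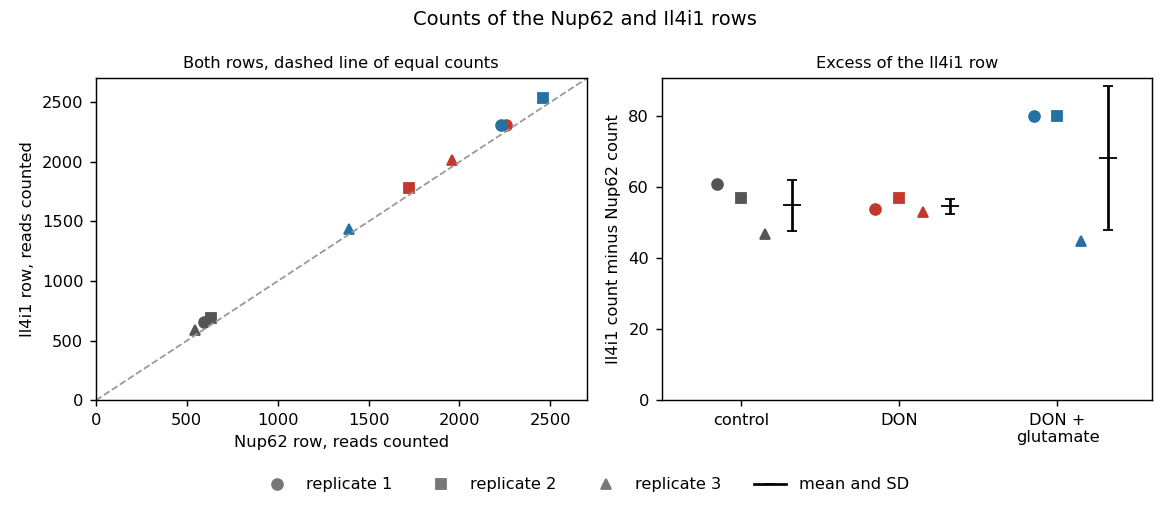
Left, reads counted in the Il4i1 row against the Nup62 row in each of the 9 libraries, with a dashed line of equal counts. Right, Il4i1 minus Nup62 counts by group, with mean and SD (n = 3). The points follow the line just above it, with an excess of 45 to 80 counts in every library.

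In the Atf5 row, whose exons hold the other strand of the same 82 bases, no difference passed the test. By the same reading the row holds plus-strand transcripts, and Nup62 and Il4i1 are the coding genes that overlap it there. Reads over all 1993 exonic bases of Atf5 can enter it, and how many lay in the 82 bases was not tested. The row was at 282 ± 12.8 CPM in control, 278 ± 31.2 in DON and 298 ± 46.3 in DON plus glutamate (SD, n = 3), and the groups overlapped. Its log2 difference was -0.02 ± 0.11 (SE) for DON against control (adjusted p = 0.962) and 0.08 ± 0.11 for DON plus glutamate against control (adjusted p = 0.803). Within each library the Nup62 row held 1.47 to 1.71 counts per Atf5-row count in control, 5.24 to 5.54 in DON and 3.97 to 6.82 in DON plus glutamate. These ratios do not depend on library size or on normalisation. Of the neighbouring rows, Tbc1d17 (opposite Il4i1 and 89 bases of Akt1s1) was at log2 0.35 ± 0.18 for DON against control (adjusted p = 0.302), from 33.5 ± 4.3 to 42.7 ± 5.1 CPM. Akt1s1, a substrate of the kinase AKT, had 6 to 15 counts per library and was at 0.10 ± 0.40 (adjusted p = 0.935). The Med25 row did not pass the filter. Neither did those of Siglecg, further off on chromosome 7, and Ube2v1, near Tmem189 on chromosome 2.

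The Tmem189 row, read as Cebpb, was slightly higher with DON. It stood at 476, 466 and 450.1 CPM in control, at 575, 589 and 591 in DON, and at 533, 519 and 390.4 in DON plus glutamate. Every DON library was above every control library, as in 11.5% of all rows, and the control and DON libraries each lay close together. The glutamate group was wide: replicates 1 and 2 lay between control and DON, and replicate 3 was the lowest of all 9 libraries. The means were 464 ± 13.1, 585 ± 9.03 and 481 ± 78.5 CPM (SD, n = 3). DON against control was at log2 0.33 ± 0.09 (SE), or 1.26-fold, the 658th highest of 4731 rows. The Nup62 and Tmem189 rows were set against each other within libraries: per Tmem189 count the Nup62 row held 0.944 to 1.07 counts in control, 2.26 to 2.94 in DON and 3.15 to 3.53 in DON plus glutamate.

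**Figure D3:**
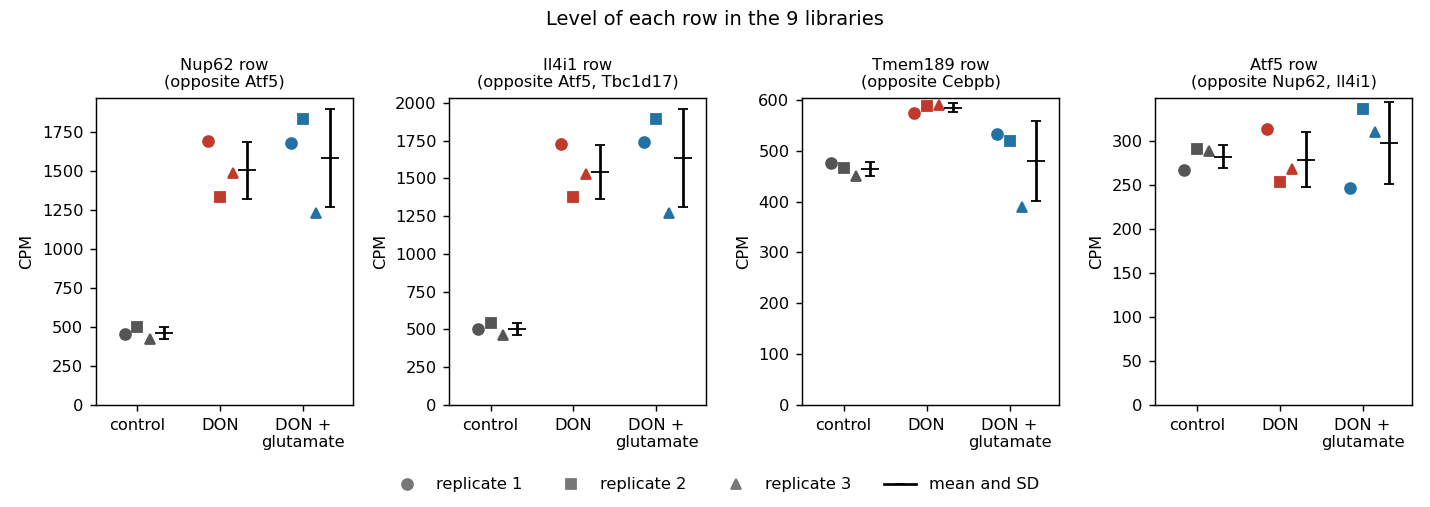
CPM of the Nup62, Il4i1, Tmem189 and Atf5 rows in each library, by group, with mean and SD (n = 3). The 6 libraries with DON lie above the controls for Nup62 and Il4i1. For Tmem189 the 3 DON libraries are the highest, and for the Atf5 row the groups overlap.

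Added glutamate did not detectably move the Nup62 row, read as Atf5, under DON. In DON plus glutamate against DON the Nup62 row was at log2 0.08 ± 0.11 (SE; adjusted p = 0.937 by edgeR) and the Il4i1 row at 0.08 ± 0.11 (adjusted p = 0.923). The Tmem189 row was at -0.28 ± 0.09, with all 3 glutamate libraries below all 3 DON libraries, but it did not pass (unadjusted p = 0.00618, adjusted p = 0.540, range over the alternatives 0.297 to 1). In this comparison 0.148% of rows were called (0.106% higher, 0.0423% lower), 6.07% had all glutamate libraries below all DON libraries, and 6.72% had an unadjusted p under 0.05. Without DON plus glutamate replicate 3 the Tmem189 value was -0.15 and the Nup62 value 0.23, neither passing (adjusted p = 0.802 and 0.639). This comparison shares its DON libraries with the one in which the rows were picked. The ratio of Nup62 to Tmem189 counts was higher with glutamate than with DON alone in all libraries (3.28 ± 0.22 against 2.57 ± 0.35, SD, n = 3). An exact two-sided permutation test gave p = 0.1, the smallest that 3 libraries against 3 can reach. How many other pairs of rows would lie apart in this way was not tested. The ratio of Nup62 to Atf5-row counts was 5.41 ± 1.43 with glutamate and 5.39 ± 0.15 without (exact permutation p = 0.9).

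With DON plus glutamate, the Nup62 row, read as Atf5, stayed above its level in untreated cells. The Nup62 row was 3.44-fold higher (log2 1.78 ± 0.11, SE; adjusted p = 2.97e-11 by edgeR) and the Il4i1 row 3.25-fold higher (1.70 ± 0.11; adjusted p = 5.05e-11), in 3 of 3 libraries each. Of all rows, 3.23% were called in this comparison, 1.42% as higher and 1.82% as lower (67 against 86, and 104 against 50 with library totals), and 9.87% had all libraries above all controls. The Tmem189 row was at 0.05 ± 0.09 and did not pass (adjusted p = 0.843), and its libraries overlapped the controls. Without DON plus glutamate replicate 3 it was at 0.18 (adjusted p = 0.306). The controls are shared with the comparison in which these rows were picked.

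**Figure D4:**
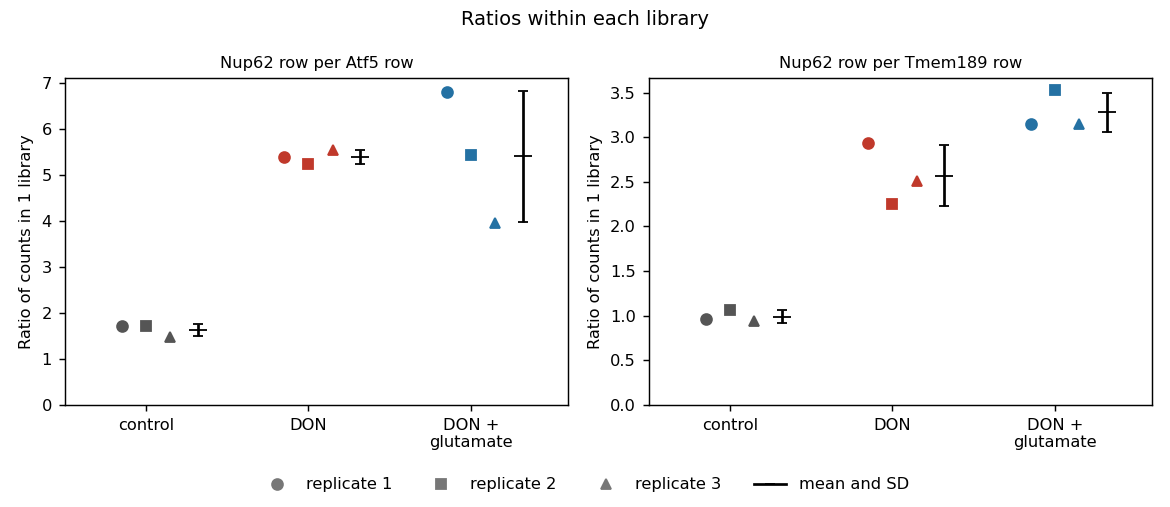
Ratio of counts within each library, Nup62 row per Atf5 row (left) and per Tmem189 row (right), by group, with mean and SD (n = 3). Control ratios are 1.47 to 1.71 on the left and 0.944 to 1.07 on the right, below all 6 libraries with DON.

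Other ATF4 and CHOP target genes were read in the same way, each through 1 row that lies opposite it. The list was drawn up with earlier results of these data known, so its counts are a description and no independent test. Of 34 listed besides Atf5 and Cebpb, 6 could be read, and 5 rose with DON against control (0 fell). Their median log2 difference was 1.47, against -0.0044 over 2438 genes so read, of which 84 rose and 126 fell. Aldh1l2, a mitochondrial folate enzyme, was at 2.13 ± 0.08 (SE), Slc6a9, a glycine transporter, at 1.78 ± 0.07, and Gadd45a, a growth arrest gene, at 1.72 ± 0.09. Ddit3, which encodes CHOP, was at 1.16 ± 0.13 and Mars, the methionyl-tRNA synthetase, at 1.23 ± 0.09. Ddit3 was read through the row named Mars and Mars through the row named Ddit3, over an overlap of 68 bp. These 2 genes thus come from 1 locus. Psph, of serine synthesis, was at -0.08 ± 0.18 (adjusted p = 0.863). Against control, DON plus glutamate had 5 of 6 called higher, with a median of 1.45. Of the 2438 genes so read, 43 were higher and 64 lower, with a median of -0.020. Against DON, 0 of 6 passed (0 by DESeq2, 1 at an unadjusted p under 0.05), with a median of -0.03 (-0.01 over all genes so read). The one at an unadjusted p under 0.05 was Ddit3, at -0.26 ± 0.12 (adjusted p = 0.707). It went from 61.8 ± 7.32 CPM in control to 138 ± 10.8 in DON and 115 ± 8.13 in DON plus glutamate (SD, n = 3). The last 2 groups did not overlap, and neither did those of Aldh1l2, at -0.11 ± 0.07 (SE; adjusted p = 0.852 by edgeR). For the other targets read, these groups overlapped. In DON plus glutamate against DON, 6.07% of all rows were lower without overlap and 6.72% had an unadjusted p under 0.05.

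The C/EBP and ATF family and its basic leucine zipper relatives were read likewise. Of 39 listed besides Atf5 and Cebpb, 5 could be read, and 1, Ddit3, rose with DON (84 of all 2438 genes so read rose and 126 fell). In DON plus glutamate against control it was again the 1 of 5 called, as higher (43 of 2438 higher, 64 lower). Jun and Jund, subunits of the AP-1 factor, were at log2 0.12 ± 0.11 and 0.07 ± 0.09 (SE), Mafk, a small Maf protein, at 0.19 ± 0.14, and Creb3, a membrane-bound factor, at -0.29 ± 0.12. None of these 4 passed. The median of the 5 was 0.12. Against DON, DON plus glutamate had 0 of 5 called (0 by DESeq2) and 2 at an unadjusted p under 0.05, where 0.148% and 6.72% of all rows were.

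Of 11 listed genes of eIF2 regulation 3 could be read, with a median of -0.19 in DON against control. Over all 2438 genes so read the median was -0.0044, with 84 called higher and 126 lower. Of the 3, 1 was called, as lower. Eif2ak3, the kinase PERK of the endoplasmic reticulum, fell with DON from 205 ± 23.7 to 157 ± 17.6 CPM (SD, n = 3; log2 -0.38 ± 0.11, SE; adjusted p = 0.0376). That call ended with library totals (adjusted p = 0.0691), the DESeq2 test (0.0768) and the replicate block (0.0577). Leaving out 1 library ended it in 4 cases: control 1 (0.222), control 3 (0.0640), DON 1 (0.137) and DON 2 (0.134). Over all alternatives its adjusted p spanned 0.0250 to 0.222. Eif2ak1, the heme-regulated kinase, was at -0.19 ± 0.10 and Ppp1r15b, a subunit of the eIF2 phosphatase, at 0.27 ± 0.11, neither passing.

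**Figure D5:**
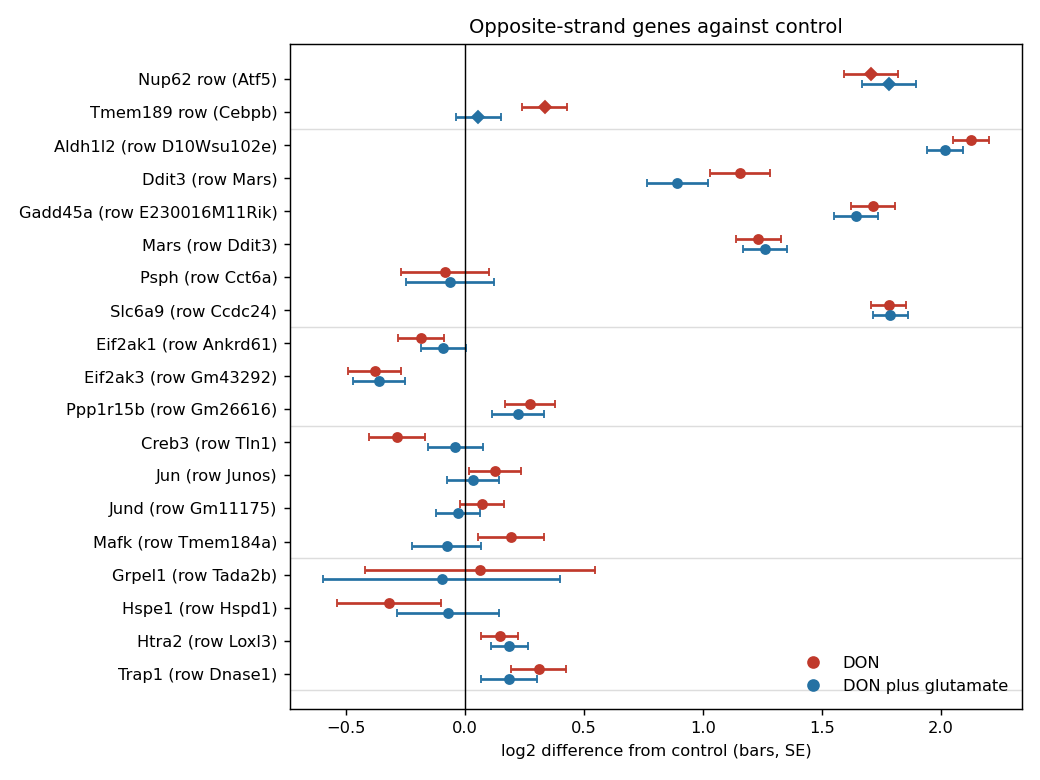
Log2 difference from control with SE for the Nup62 and Tmem189 rows (diamonds) and for genes read through an opposite row (circles, row in brackets), with DON in red and DON plus glutamate in blue. Groups from top to bottom are ATF4 and CHOP targets, eIF2 kinases and phosphatases, C/EBP and ATF family, and mitochondrial folding genes. The Nup62 row lies at 1.71 and 1.78, and the Tmem189 row at 0.33 and 0.05.

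Mitochondrial chaperones and proteases, the class with which ATF5 has been linked, had no readable member that passed in DON against control. Of 16 listed 4 could be read, with a median log2 of 0.10, and 0 were called by edgeR (0 by DESeq2). Over all 2438 genes so read, 84 were called higher and 126 lower, the share to set beside this list and those that follow. Of the 4, 1 was at an unadjusted p under 0.05, as were 19.4% of all rows. Htra2, a mitochondrial protease, was at 0.14 ± 0.08 (SE), Trap1, a mitochondrial chaperone, at 0.31 ± 0.11, Hspe1, the chaperonin cofactor, at -0.32 ± 0.22, and Grpel1, which serves the mitochondrial Hsp70, at 0.06 ± 0.48. Of 16 endoplasmic reticulum folding genes 2 could be read, Hsp90b1 at -0.07 ± 0.07 and Syvn1 at -0.22 ± 0.24, and 0 were called (0 by DESeq2, 0 at an unadjusted p under 0.05). Of 16 acute phase and cytokine targets of C/EBP-beta 1 could be read, the receptor gene Il4ra, at 0.09 ± 0.14. Most members of each list could not be read, so these counts speak only for those named.

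The rows whose pattern was closest to each member were found by the root-mean-square difference, over 9 libraries, of log2 CPM centred on the control mean, among 2800 rows of at least 20 CPM. Beside Il4i1 (0.069 log2 units), the closest to Nup62 were E230016M11Rik, opposite Gadd45a (0.15), and Ccdc24 and Gm17114, both opposite Slc6a9 (0.18 and 0.19). The median row was 1.44 away. The measure includes the difference with DON by which the members were picked, so a row without such a difference lies far from Nup62 and Il4i1 by construction. Il4i1 had the same 3 rows beside Nup62, at 0.15 to 0.21. The closest to Tmem189 were Atp6v1g2, opposite Nfkbil1 (0.088), Ncaph2 (0.096), Arhgap27os1 (0.097), AC102542.1, opposite Ptprg (0.098), and Ypel1, opposite Ppil2 (0.10), where the median row was 0.30 away. The Tmem189 pattern is a small difference, and rows near it differ from control by only 0.21 to 0.34.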

How the data were processed

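Per the submitters' processing notes, STAR, HTSeq and the build mm10 were used, and no versions are named. The authors deposited raw counts, whole numbers per gene row, and the strand setting is not given in the sources used here. Rows were matched to GENCODE mouse M21 on mm10 (53274 of 53379), which may not be the annotation the authors used. A row was read as an opposite-strand gene where its exons overlapped those of exactly 1 coding gene there by at least 50 bp, and the row with the highest mean stood for the gene. Only a recount from reads could settle the strand.

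All rows were tested in 1 edgeR 4.0.16 fit (R 4.3.3) of 9 libraries and 3 groups: filterByExpr, TMM factors, glmQLFit and glmQLFTest, two-sided, Benjamini-Hochberg adjusted p under 0.05, 6 residual degrees of freedom. CPM uses TMM-adjusted totals of tested rows. SEs are those implied by the test statistic. The test was tested on simulated counts. Libraries of a group differed by more than sampling noise (chi-square per degree of freedom 2.15 to 3.48). Promoters come from RefSeq. Totals give the depth of assigned reads only.

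Members, lists, naming rule and tests were chosen with earlier results of these data known. The rule named the 3 rows and the rows of the genes opposite, of neighbours and of Siglecg. It also named list genes that passed in any contrast or had the 3 smallest p, and the 5 rows closest in pattern. One of the 5 rows closest in pattern to Nup62 and to Il4i1, which is read as a gene on none of the lists, is not reported here. Alternatives tried were size factors from DESeq2 1.42.0, totals without composition factors, no filter on low counts, the DESeq2 Wald test, the replicate number as a block, only the groups compared, opposite-strand genes only, and each library left out in turn.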

Additional observations from a re-analysis of the deposited data

How the results depend on the processing

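Of 141 values of the 3 rows under 16 alternatives, 135 kept their direction and also, where tested, their side of the threshold or, where not tested, stayed within the replicate spread. The Tmem189 row in DON against control was at log2 0.38 with library totals, a move larger than its replicate spread, and from 0.31 to 0.35 without 1 library. Near-zero values changed sign when 1 library was left out. In DON plus glutamate against DON, Nup62 was at -0.0036 without DON replicate 2 and at -0.045 without DON plus glutamate replicate 2 (range -0.045 to 0.23), and Il4i1 ranged from -0.035, without DON plus glutamate replicate 2, to 0.24. For DON plus glutamate against control, Tmem189 was at -0.026 without DON plus glutamate replicate 1 and at -0.0055 without replicate 2 (range -0.026 to 0.18). The cause was not tested.

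The count of rows called in DON against control (299) was 183, 176, 173 and 182 without control replicate 1, control replicate 2, DON replicate 2 and DON replicate 3 (range 173 to 318). In DON plus glutamate against DON (7) it was 15 with no filter, 2 with DESeq2, 3 with only the groups compared and 1 with opposite-strand genes only. Leaving out DON replicate 3 gave 1, as did leaving out DON plus glutamate replicate 2, and its replicate 3 gave 11 (range 1 to 11). Between DON plus glutamate and control (153) it was 99 without control replicate 2 and 88 without DON plus glutamate replicate 2 (range 88 to 178). The split of 125 higher and 174 lower in DON against control became 180 and 126 with library totals, and that of 67 and 86 in DON plus glutamate against control became 104 and 50. The 5 called targets of ATF4 and CHOP numbered 5 in all 16 alternatives.

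With the replicate block the Nup62 row was at log2 1.71, the Il4i1 row at 1.62 and the Tmem189 row at 0.34 in DON against control, with 221 rows called. Libraries of the same number had deviations correlated from -0.22 to 0.17, and libraries of other numbers from -0.20 to 0.21. Of the 9 libraries, 3 correlated best with their own number. No pairing by number shows in these values, but a weak one could be missed, and the labels do not state any. Short windows limit depth: 82 bp stand for Atf5 and 312 for Cebpb.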
